A study of Lactuca sativa with 12 samples.

Results

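The genes described here are those whose mRNA was high in the above-ground tissue of ‘Salinas’ lettuce after 4 h at 4 °C. Their ratio to the warm level, taken with a constant added to both, was below 2 after 24 h and within set limits after 7 d. These genes were 137 of the 23933 genes in the expression table. Expression was measured by RNA-seq as CPM, that is, reads of a gene per 1000000 reads counted in the library. The genes were chosen on these values: with 1 CPM added to each mean of 3 libraries, the ratio to 0 h had to be at least 3 at 4 h, below 2 at 24 h and between 0.6 and 1.5 at 7 d. All means of the time-points thus entered the choice, so the rise and the return are given below as a description with no test. In the table, 509 genes reached a ratio of 3 at 4 h, of which 1 was left out of the set by name and 371 did not meet the later limits.

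There were 4 groups of 3 biological replicates, all of ‘Salinas’ plants moved to their treatment at an age of 18 days. The warm-grown controls (0 h) were kept at 20 °C with 350 to 400 µmol m−2 s−1 of light. The other plants were moved to 4 °C with about 100 µmol m−2 s−1 of light and harvested after 4 h, 24 h or 7 d. The photoperiod was 16 h throughout. Temperature and light intensity changed at the same time, and the hour of day at harvest is not given in the sources used here. Cold, dimmer light and, for the 4 h samples, the hour of day cannot be told apart in these samples, nor can the age of the plants at 7 d. In such bulk tissue, fewer cells of a type and less RNA per cell also cannot be told apart.

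When a plant is chilled, calcium enters the cell, and calcium-binding proteins and protein kinases pass the signal on to transcription factors. Among the first genes to be transcribed are regulators whose mRNA is short-lived, and many of them are also induced by wounding, touch or pathogens. The CBF/DREB1 transcription factors belong to the early genes, whereas the protective proteins they induce accumulate later. Repressors, ubiquitin ligases, mRNA-degrading enzymes and enzymes that break down hormones are known members of early responses in Arabidopsis, where they limit the signals that induced them.

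The libraries held 18609189 to 25952306 reads on the genes of the table, so that 3 reads, taken as the least that can be read as expression, came to 0.116 to 0.161 CPM. This floor covers counting error only. The label of the tissue was checked on 11 listed genes of Rubisco small chains, chlorophyll a-b binding proteins and photosystem I, whose summed level was 43054 to 45148 CPM in warm plants, 40121 to 41232 after 4 h, 28553 to 32522 after 24 h and 13076 to 13324 after 7 d. These genes mark photosynthetic tissue, and they were abundant in every library. No root endodermis marker was among the listed genes, and their level was not measured. The list of flower markers held 2 genes, both described as floral homeotic protein APETALA 2. Their summed level was 16.4 to 25.9 CPM in warm plants, 47.0 to 53.9 after 4 h, 44.8 to 51.1 after 24 h and 32.3 to 40.6 after 7 d. Whether this reflects floral tissue was not tested. Gene descriptions came from the part of the study's list of cold-regulated genes used here, so 46 of the 137 genes have a description, 9 are listed with none, and 82 lie outside that part. Genes are given by short names, in which Ls3g20400.1 stands for Lsat_1_v5_gn_3_20400.1 and the digit after Ls is the linkage group. The digit 0 is outside the groups 1 to 9 that the paper describes.

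The rise at 4 h was moderate in most of these genes. The ratio of mean CPM plus 1, 4 h over 0 h, ran from 3 to 11.2 with a median of 3.8, and 77 of the 137 genes lay below 4, whereas 29 reached 5 or more. The mean level had a median of 3.08 CPM in warm plants, 15.1 CPM after 4 h, 4.40 CPM after 24 h and 2.88 CPM after 7 d. Levels at 4 h spanned 2.44 to 213 CPM. Low warm levels were common, with 33 genes below 1 CPM and 11 at 20 CPM or more at 0 h. For such low genes the added 1 CPM keeps the ratio smaller than the fold change of the CPM itself. It also draws their later ratios towards 1, so some met the later limits although their CPM itself lay outside them. Ls3g6800.1 had a mean of 0.934 CPM at 24 h, against 0.150 CPM at 0 h, and a ratio of 1.68. Ls3g67720.1 had 0.102 CPM at 7 d, against 0.804 CPM at 0 h, and a ratio of 0.611.

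In all 137 genes, every 4 h library lay above every 0 h library, a pattern that 22.6% of the 22306 genes tested also had. Every 4 h library also exceeded all 9 other libraries in each of the 137 genes, against 7.8% of the genes tested. All 137 genes passed the filter on low values. With limma on log2(CPM + 1), 135 of them were called higher at 4 h than at 0 h and 0 lower, beside 5.15% higher and 0.592% lower of all genes tested. A call required a 2-fold change, that is 1 on the log2 scale, and a Benjamini-Hochberg adjusted p of 0.01 or less. Since these means chose the genes, nothing is read from that count.

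**Figure D1:**
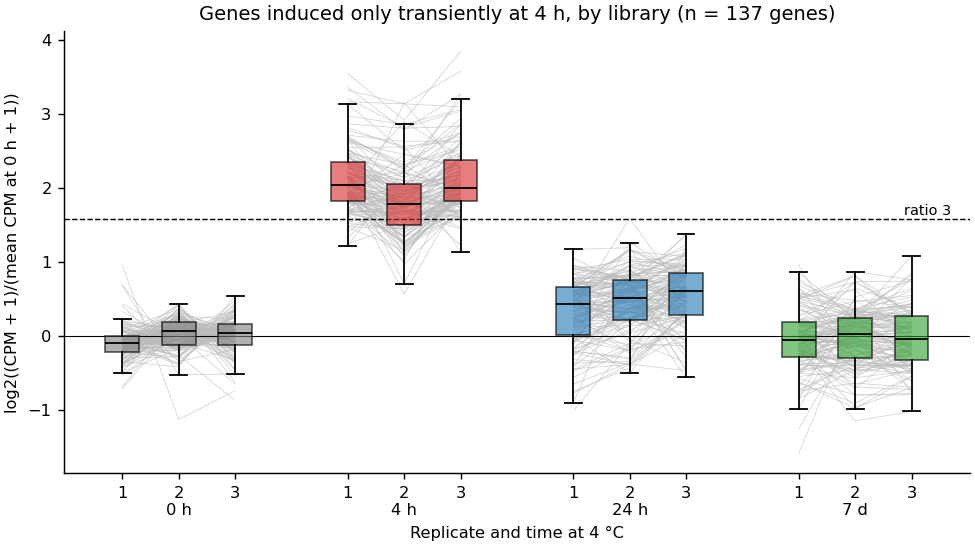
Each grey line is 1 of the 137 genes and each box shows the median and quartiles of the genes in 1 library, with whiskers to the last value within 1.5 interquartile ranges. The y axis is log2 of CPM plus 1 over the mean at 0 h plus 1, the x axis gives replicate and time at 4 °C, and the dashed line marks a ratio of 3. The 3 boxes at 4 h stand apart from the rest, the middle one (replicate 2) lowest among them, and the 24 h boxes remain slightly above 0.

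The median ratio was lower at 7 d than at 24 h, a difference that the limits (below 2 at 24 h, 0.6 to 1.5 at 7 d) fix in part. At 24 h the median ratio to 0 h was 1.41, with 84 genes below 1.5 and 10 below 1, and the median share of the 4 h rise that was left came to 11.9% (−11.3 to 45.3%). At 7 d the median ratio was 0.996, with 70 genes below 1 and 67 above it, and the median share left was −0.125%. In 127 of the 137 genes the mean at 24 h was above that at 7 d. With TMM factors, which scale libraries on the bulk of their genes, in place of library totals, the median ratio came to 3.68 after 4 h, 1.39 after 24 h and 0.927 after 7 d. The median log2 fold change of all tested genes at 7 d was 0.15 with library totals and 0.02 with TMM, so the median at 7 d moved with the scaling. No time between 4 h and 24 h was sampled, so when the levels turned is not known from these samples.

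No member was called by limma at 24 h or at 7 d, where 5.99% and 6.81% of all genes tested were called higher and 3.55% and 3.41% lower. At an unadjusted p under 0.05, 78 of the genes were higher and 0 lower at 24 h, and 18 were higher and 10 lower at 7 d. Of all genes tested, 28% were higher and 21.6% lower on that measure at 24 h, and 38.2% and 19% after 7 d. With reads recovered from the CPM values, edgeR (quasi-likelihood) called 17 members higher at 24 h, where it called 7.18% of all genes higher, and 4 lower at 7 d, where it called 7.63% lower. DESeq2 called 15 members higher at 24 h, against 7.18% of all genes, and 7 lower at 7 d, against 8.22%. Without replicate 1 at 24 h, limma called 10 members higher there, against 5.9% of all genes. The limits at 24 h and 7 d had kept larger changes out of the set, so nothing is read from these counts.

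**Figure D2:**
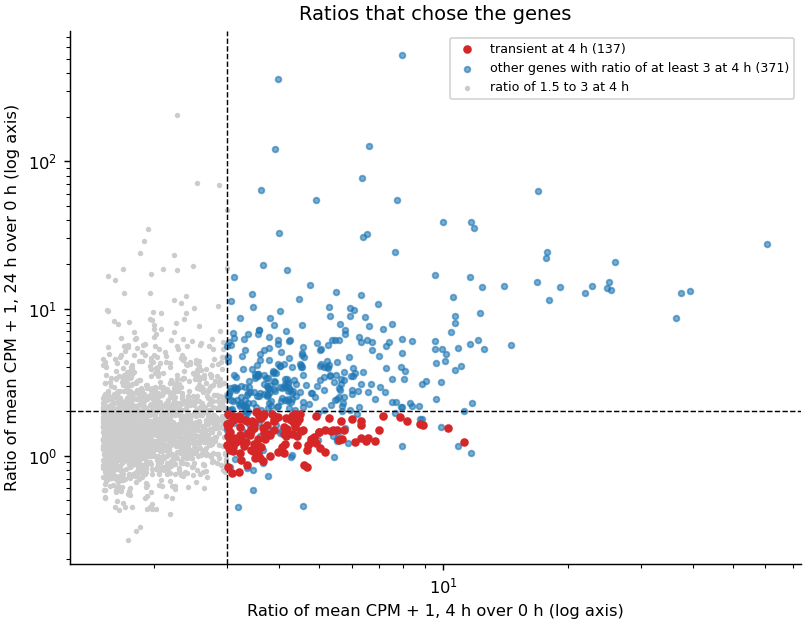
Both axes are logarithmic and give ratios of mean CPM plus 1, 4 h over 0 h on the x axis and 24 h over 0 h on the y axis, for each gene with a ratio of at least 1.5 at 4 h. The 137 transient genes (red) fill the corner right of 3 and below 2, and most of the 371 other genes (blue) lie above it, 318 of them with a ratio of 2 or more at 24 h.

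The limits ran through a continuous range of values. Just inside the limit at 4 h were Ls7g51000.1 with a ratio of 3.003 and Ls8g99561.1 with 3.004, and just outside were Ls3g47000.1 with 2.98 and Ls2g129041.2, described as trehalose-phosphate phosphatase A, with 2.97. Of the genes that met the other limits, 32 had a ratio of 2.8 to 3, and 19 members had one of 3 to 3.2. With 0.1 CPM added to the means in place of 1, the limits gave 216 genes, of which 94 were among the 137. At 24 h, Ls2g340.2 and bZIP50 (Ls2g3181.1) lay inside at 1.99 each, and Ls5g147980.1 at 2.00 and MYB77 (Ls1g19840.1) at 2.01 lay outside. At 7 d the upper limit was met by Ls2g340.2 and Ls1g96060.1 at 1.495 each and passed by Ls5g64841.1 at 1.501 and Ls7g54320.3 at 1.51. The lower limit at 7 d was met by Ls4g180921.3 and Ls3g67720.1 at 0.611 each and missed by Ls5g91960.1 at 0.586 and Ls5g129040.1 at 0.540. Of the 371 other genes, 53 were below 2 at 24 h and failed only at 7 d, 38 of them at a ratio of 1.5 or more and 15 at 0.6 or less.

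In the paragraphs that follow, values in single libraries are in the order of replicates 1, 2 and 3, and ratios are those of mean CPM plus 1 to 0 h. CPM does not account for transcript length, so levels are compared within a gene and not between genes. Family counts stand beside those of all 1619 listed genes with a description, of which 1591 were tested. Of these, 354 were called higher and 36 lower at 4 h, 154 had a ratio of at least 3 and 46 were members. That a family had members is given as a description, and nothing is read from its counts.

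Genes for calcium and signal relay were among the members. Of 30 listed genes with calcium or calmodulin in their descriptions, 16 were called higher at 4 h, 7 had a ratio of at least 3 and 2 were members. Ole e 8 (Ls3g53980.1), an EF-hand calcium-binding protein first known from olive pollen, had 26.9, 27.2 and 39.7 CPM before cold, 149.6, 109 and 133 after 4 h, 23.2, 35.9 and 48.1 after 24 h and 21.9, 20.8 and 22.3 after 7 d. The 4 h libraries stood well clear, the 24 h libraries overlapped with those at 0 h, and the 7 d libraries were all below them. CML23 (Ls4g156941.1), a calmodulin-like protein, showed the same order of time-points with 7.79, 7.13 and 8.9 CPM before cold, 48.2, 38.4 and 48.7 after 4 h, 5.52, 7.37 and 12.6 after 24 h and 6.15, 4.55 and 4.43 after 7 d. Its ratio of 5.16 at 4 h was followed by 1.06 at 24 h and by 0.68 at 7 d, and its 7 d libraries lay below every 0 h library. In both genes replicate 2 was the lowest library at 4 h.

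Cyclic nucleotide-gated ion channel 1 (Ls3g139900.2), of a family of calcium-permeable channels, had 9.9, 13 and 13.9 CPM before cold, 50.2, 32.4 and 50.8 after 4 h, 18.5, 21.1 and 18.1 after 24 h and 11.1, 7.44 and 8.69 after 7 d. Its 24 h libraries were all above 0 h. Of 5 listed genes of the mitogen-activated protein kinase cascade, 1 was called at 4 h, and the same gene was the member. This was MKK4 (Ls1g39620.1), which in Arabidopsis activates kinases of wounding and defence signals, with 2, 2.23 and 2 CPM before cold, 12.3, 10.1 and 14.9 after 4 h, 2.99, 8.27 and 3.46 after 24 h and 1.98, 4.12 and 2.85 after 7 d. Its 24 h libraries were uneven, replicate 2 closer to the 4 h libraries and the others closer to 0 h, and the mean ratio at 24 h was 1.92.

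Among other proteins that act on phosphate groups or at the membrane, the phosphatase DSP3 (Ls2g18221.3) had the smallest spread at 4 h of the 119 members with a mean of at least 5 CPM there, with 2.51, 2.72 and 2.33 CPM before cold, 11.3, 11 and 11.4 after 4 h, 4.33, 4.28 and 4.6 after 24 h and 3.53, 2.66 and 2.21 after 7 d. The receptor-like cytoplasmic kinase PBL3 (Ls1g67440.1) had a mean of 14.6 ± 0.773 CPM after 4 h, against 3.32 ± 0.721 CPM in warm plants (SD, n = 3 each). BON1-associated protein 2 (Ls3g136181.3), which limits cell death in Arabidopsis, was close to the floor at 0 h and at 7 d. It had 0.103, 0.247 and 0.19 CPM before cold, 6.7, 4.64 and 9.83 after 4 h, 0.155, 0.38 and 0.9 after 24 h and 0.107, 0.116 and 0 after 7 d. At 24 h, replicates 2 and 3 were above every 0 h library. Its libraries at 4 h spread widely around a mean of 7.06 CPM, and its ratio of 6.83 depends on the added 1 CPM.

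Receptors were also among the members. Of 107 listed receptor-like kinases and proteins, of which 101 were tested, 25 were called higher at 4 h, 6 reached a ratio of 3 and 2 were members. Over all 1619 listed genes with a description, of which 1591 were tested, these counts were 354, 154 and 46. Receptor like protein kinase S.2 (Ls1g73121.1), of the kinases that span the plasma membrane, had 1.64, 2.92 and 2.38 CPM before cold, 13.8, 9.01 and 11.1 after 4 h, 3.41, 3.95 and 2.56 after 24 h and 2.67, 2.43 and 3.53 after 7 d. Receptor-like protein 6 (Ls2g66601.2), a leucine-rich repeat protein with no kinase domain, had 1.38, 0.891 and 2.09 CPM before cold, 10.9, 8.53 and 11 after 4 h, 3.1, 2.76 and 1.94 after 24 h and 0.748, 1.54 and 1.21 after 7 d. Both genes kept a little of the rise at 24 h, 11% and 13.2% of the 4 h rise. Of 56 listed disease resistance genes, 6 were called higher and 1 lower at 4 h and 1 was a member. It was described as TMV resistance protein N (Ls1g91940.1), an intracellular immune receptor in tobacco, and had 4.51, 6.29 and 3.76 CPM before cold, 29.9, 26.4 and 33.3 after 4 h, 9.55, 8.04 and 10.9 after 24 h and 3.42, 5.82 and 6.17 after 7 d. Its 24 h libraries were all above those at 0 h, while the 7 d libraries overlapped with them.

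Transcription factors of several families were represented. Of 9 listed WRKY genes, 4 were called higher at 4 h, 3 had a ratio of at least 3 and 2 were members. WRKY46 (Ls3g139241.1), a defence-related factor in Arabidopsis, had 7.08, 6.34 and 7.62 CPM before cold, 45.1, 27.6 and 41.3 after 4 h, 11.1, 9.75 and 8.15 after 24 h and 5.83, 4.66 and 5.74 after 7 d. WRKY7 (Ls4g127960.2), which binds calmodulin in Arabidopsis, had 4, 5.79 and 6.33 CPM before cold, 30, 25.3 and 27.7 after 4 h, 9.13, 10.8 and 13.5 after 24 h and 5.24, 5.74 and 5.06 after 7 d. WRKY46 was below all 0 h libraries at 7 d, whereas WRKY7 was above all of them at 24 h and within their range at 7 d.

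Of 16 listed AP2/ERF genes, 5 were called higher at 4 h, and 1 reached a ratio of 3 and was a member. This was ERF4 (Ls1g125981.1), a repressor of ethylene-responsive genes in Arabidopsis, with 0.41, 0.643 and 0.524 CPM before cold, 6.7, 3.36 and 8.49 after 4 h, 0.361, 0.998 and 1.04 after 24 h and 0.214, 0.27 and 0 after 7 d. Its warm level was low and the 4 h libraries differed by more than a factor of 2. Of 8 listed bHLH and bZIP genes, 3 were called at 4 h, and the 2 with a ratio of at least 3 were the members. bHLH130 (Ls1g110041.2) had 11.4, 14.8 and 13.8 CPM before cold, 61.8, 65.4 and 55.5 after 4 h, 25.2, 23.6 and 29.5 after 24 h and 12.3, 12.8 and 16.3 after 7 d. bZIP50 (Ls2g3181.1), one of the 2 genes nearest to the 24 h limit, had 22.2, 21.7 and 22.6 CPM before cold, 84.7, 68.1 and 90.3 after 4 h, 37.1, 50.4 and 47.8 after 24 h and 33.9, 28.9 and 35.2 after 7 d. In both of them every 24 h library was above every 0 h library, and for bZIP50 this was so at 7 d too, so its return was partial. None of the 4 listed ZAT or AZF zinc finger genes, 12 MYB genes and 8 NAC genes was a member, although 2, 5 and 1 of them were called higher at 4 h and 1 MYB gene was called lower.

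None of the 11 LsCBF genes measured met the limits. Among them LsCBF1, LsCBF3, LsCBF4 and LsCBF8 met the limits at 24 h and 7 d and missed that at 4 h, with ratios there of 1.38, 2.27, 1.64 and 1.94, and they were singled out after their values were seen. LsCBF3 had 0.103, 0.148 and 0.428 CPM before cold, 1.43, 1.55 and 2.36 after 4 h, 0.361, 0.713 and 0.947 after 24 h and 0.16, 0.193 and 0.105 after 7 d. LsCBF4 had 0, 0 and 0.19 CPM before cold, 0.792, 0.373 and 1.07 after 4 h, 0.0516, 0.0475 and 0.142 after 24 h and 0.107, 0.0771 and 0.0527 after 7 d. Both were highest at 4 h in every replicate, at levels close to the 1 CPM added before the ratio. LsCBF11, which had 135, 130.2 and 138 CPM at 4 h, still had 55.9, 52.3 and 73.7 CPM at 24 h and was thus far above the limit there.

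Members of protein and mRNA turnover were present. Of 35 listed ubiquitin ligases, 12 were called higher and 1 lower at 4 h, 7 had a ratio of at least 3 and 3 were members. The U-box domain-containing protein 4 (Ls4g131680.1) had 2.82, 1.93 and 2.09 CPM before cold, 17.2, 15.4 and 17.8 after 4 h, 2.89, 4.04 and 4.78 after 24 h and 3.31, 2.08 and 2.69 after 7 d. ATL54 (Ls2g65961.1), of the RING-H2 ligases, had 3.28, 4.6 and 5.81 CPM before cold, 20.5, 12.3 and 20.1 after 4 h, 9.75, 9.22 and 6.68 after 24 h and 3.37, 3.85 and 3.58 after 7 d. PUB23 (Ls1g58201.1), a U-box ligase that restrains immune signalling in Arabidopsis, had 1.28, 2.28 and 2.43 CPM before cold, 15.2, 8.64 and 8.17 after 4 h, 4.03, 3.8 and 4.97 after 24 h and 1.66, 2.43 and 2.63 after 7 d. Only the U-box protein 4 was tight at 4 h, replicate 2 of ATL54 was low, and replicate 1 of PUB23 was high. The F-box proteins, which choose substrates for ubiquitin ligases, included the one described as At5g46170 (Ls2g25220.1) with a ratio of 4.91 at 4 h and PP2-B10 (Ls2g16181.2) with 3.1.

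CCR4-associated factor 1 homolog 11 (Ls0g37261.1), of the enzymes that shorten the poly(A) tails of mRNAs, was 1 of 2 listed mRNA decay genes, and the only one of them called at 4 h. It had 7.79, 7.92 and 10 CPM before cold, 43.5, 36.8 and 40.6 after 4 h, 12.1, 12.2 and 12.9 after 24 h and 7.11, 6.55 and 6.22 after 7 d. All its 24 h libraries were above every 0 h library, and all its 7 d libraries were below every one of them.

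Hormone enzymes and regulators of 5 kinds were members. The abscisic acid 8-hydroxylase 1 (Ls3g20400.1), which begins the breakdown of abscisic acid, had 20.5, 28.5 and 14.1 CPM before cold, 172, 159 and 183 after 4 h, 29.8, 32.5 and 56.5 after 24 h and 22.3, 20.9 and 21.9 after 7 d. Its ratio of 7.83 at 4 h was accompanied by 1.84 at 24 h and 1.03 at 7 d, and the 24 h libraries were all above 0 h, replicate 3 most. Of 11 listed abscisic acid and protein phosphatase 2C genes, 4 were called higher at 4 h, and this was the only member. Cytokinin dehydrogenase 5 (Ls1g17221.1), which degrades cytokinins, had 2.56, 3.86 and 2.62 CPM before cold, 14.8, 10.9 and 14.1 after 4 h, 2.48, 2.28 and 4.6 after 24 h and 2.51, 1.31 and 1.32 after 7 d. At 24 h its libraries surrounded those of 0 h. The 1-aminocyclopropane-1-carboxylate synthase gene (Ls3g8840.1), for the enzyme that makes the precursor of ethylene, had 8.31, 12.8 and 13 CPM before cold, 46.2, 41.7 and 41.7 after 4 h, 13.7, 16.4 and 15.2 after 24 h and 14, 16.1 and 17.1 after 7 d. Its 24 h and 7 d libraries were all above those at 0 h, and at 7 d its ratio was 1.35. It was the only one of 10 listed ethylene synthesis genes called at 4 h.

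TIFY 9 (Ls3g31461.2), a repressor of jasmonate responses in Arabidopsis, was 1 of 7 listed jasmonate genes, of which 2 were called at 4 h. It had 2.87, 3.61 and 1.71 CPM before cold, 12.6, 7.78 and 10.7 after 4 h, 2.63, 3.09 and 3.51 after 24 h and 2.14, 4.2 and 2.9 after 7 d. Its 24 h and 7 d libraries overlapped with 0 h. SAUR50 (Ls1g52081.1), a small protein of the auxin-responsive family that promotes cell expansion, had 0.769, 0.495 and 0.381 CPM before cold, 4.59, 2.93 and 3.65 after 4 h, 1.39, 1.24 and 1.14 after 24 h and 0.321, 0.424 and 0.422 after 7 d. Its 3 libraries at 24 h were above every 0 h library and those at 7 d overlapped with 0 h. Of 13 listed auxin genes, 4 were called higher and 3 lower at 4 h, and SAUR50 was the only member. Neither of the 2 listed gibberellin genes was one, and 1 of them was called lower at 4 h.

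**Figure D3:**
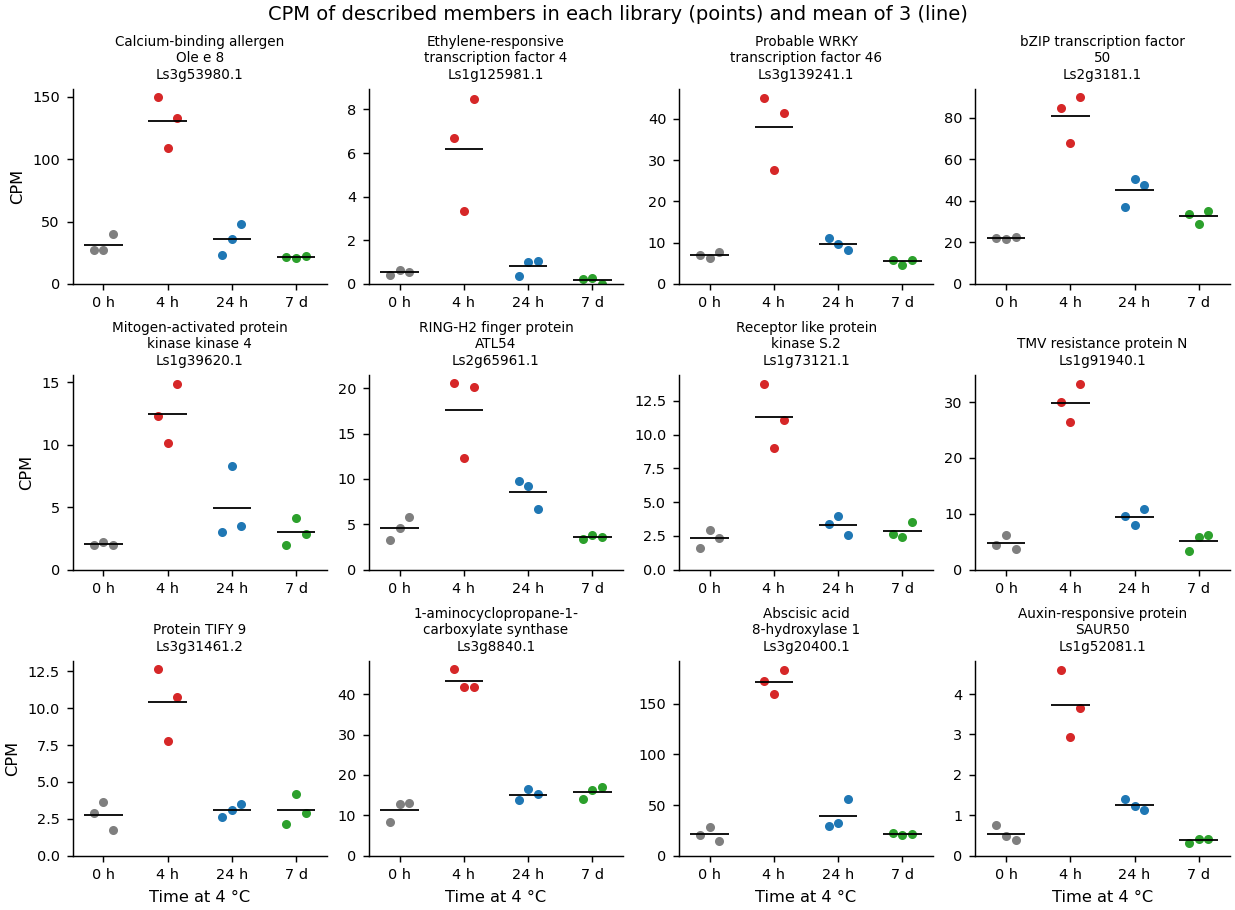
CPM is on the y axis, from 0 and with its own scale in each panel, and time at 4 °C is on the x axis, for 12 described members. Points are libraries in the order of replicates 1 to 3 and lines are means of 3, and in every panel the 3 points at 4 h are above all others, narrowly so in MKK4, where replicate 2 at 24 h reached 8.27 CPM against 10.1 CPM in the lowest 4 h library.

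Several enzymes of defence and specialised metabolism were members. Of 42 listed cytochrome P450 genes, 19 were called higher at 4 h, 10 had a ratio of at least 3 and 2 were members. The one described as 71AV8 (Ls3g65300.1), after an enzyme of sesquiterpene oxidation in chicory, had 1.69, 2.97 and 2.48 CPM before cold, 30.3, 22.9 and 26.8 after 4 h, 4.13, 5.04 and 5.26 after 24 h and 2.08, 3.31 and 2.95 after 7 d. The other, described as 82A3 (Ls1g19661.1), had 0.974, 1.48 and 2.9 CPM before cold, 9.66, 9.49 and 5.53 after 4 h, 4.8, 3.42 and 3.41 after 24 h and 2.94, 3.89 and 2.06 after 7 d. In 71AV8 the 24 h libraries were slightly above those at 0 h and the 7 d libraries overlapped with them, whereas in 82A3 all 24 h libraries and 2 of 3 at 7 d were above every 0 h library.

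Of 48 listed glycosyltransferases and glucan hydrolases, 20 were called higher at 4 h, 10 reached a ratio of 3 and 2 were members, both described as glucan endo-beta-glucosidases, enzymes that cleave callose and fungal walls. Ls1g49441.1 had 56.7, 54.6 and 48.9 CPM before cold, 235, 164 and 233 after 4 h, 122, 124 and 55.9 after 24 h and 105, 42.2 and 50.8 after 7 d. It differed between replicates at the later times, with 2 of 3 libraries high at 24 h and 1 of 3 at 7 d. Ls1g96060.1 had 0.615, 0.247 and 0.428 CPM before cold, 3.64, 4.53 and 9.4 after 4 h, 0.929, 0.666 and 0.711 after 24 h and 0.374, 1.62 and 1.42 after 7 d, and it lay just inside the upper limit at 7 d. The acidic endochitinase SE2 (Ls2g134540.1), which degrades chitin, had 8.05, 6.34 and 11.5 CPM before cold, 55.4, 55.7 and 30.8 after 4 h, 17.7, 15.3 and 5.97 after 24 h and 16.5, 10.2 and 8.59 after 7 d. Here replicate 3 was the lowest library of every cold time-point, and the labels do not say that a replicate number marks a shared source. The thaumatin-like protein 1 (Ls2g12460.3), of a pathogenesis-related family, was more even, with 27, 34 and 24.4 CPM before cold, 104, 94.4 and 93.1 after 4 h, 31.1, 31.5 and 43.3 after 24 h and 29.2, 36 and 35.1 after 7 d.

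Other enzymes ranged from near-absent to moderate warm levels. The butyrate-CoA ligase AAE11 (Ls3g67720.1) had 0.615, 0.891 and 0.904 CPM before cold, 10.3, 7.57 and 12.2 after 4 h and 0.214, 0.0385 and 0.0527 after 7 d, all 7 d libraries being under every 0 h library. The isoflavone reductase homolog (Ls3g21161.2) had 5.6, 2.03 and 3.55 CPM at 4 h and was at 0 in all 3 libraries at 7 d, which allows up to the floor given above. TIC 32 (Ls3g6800.1), a dehydrogenase of the chloroplast import machinery, had 3.22, 2.13 and 3.65 CPM after 4 h, against 0.154, 0.247 and 0.0476 CPM in warm plants, of which 2 libraries were at or under the floor. It had 1.19, 0.951 and 0.663 CPM after 24 h, all above every 0 h library, and 0.641, 0.771 and 0.105 after 7 d. Its return was thus partial, and its ratios of 1.68 and 1.31 there depend on the added 1 CPM. Larger ratios at 4 h were those of RutD (Ls2g136261.2), described as an aminoacrylate hydrolase, at 6.33, and of the alcohol dehydrogenase-like protein 3 (Ls3g14780.2) at 5.76. The caffeic acid 3-O-methyltransferase (Ls0g14861.3), an enzyme of lignin precursors, had a ratio of 3.12, and the intramembrane protease RHOMBOID-like protein 2 (Ls3g5360.1) one of 3.62.

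Ferredoxin-3 (Ls1g59281.3), an electron carrier of plastids, had 81.9, 61 and 51.6 CPM before cold, 164, 269 and 204 after 4 h, 60.5, 122 and 79.2 after 24 h and 60.8, 63 and 59.4 after 7 d. It went against most members in that replicate 2 was its highest library at 4 h and at 24 h. Alpha-latrocrustotoxin-Lt1a (Ls1g49821.1) carries the name of a spider toxin, given to it by the list, and its role in lettuce is not known from the sources used here. It had 3.33, 2.82 and 2.38 CPM before cold, 27.1, 26 and 26.4 after 4 h, 4.54, 6.47 and 7.39 after 24 h and 1.39, 3.28 and 2.58 after 7 d, among the most even of the members at 4 h with a coefficient of variation of 2.12%. The described members not yet given were B2 protein (Ls3g11361.1), vesicle-associated protein 4-2 (Ls1g122940.3), the glycine-rich domain-containing protein 2 (Ls4g158180.1) and the ankyrin repeat protein ITN1 (Ls4g101080.1), with ratios at 4 h of 3.9, 3.04, 3.41 and 3.01.

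Clock genes were examined beside the members, since the 4 h samples may differ from the others in the hour of day. Of 11 listed clock genes, 9 were called higher at 4 h and 7 had a ratio of at least 3, but only cyclic dof factor 3 (Ls1g14020.3) was a member. It encodes a factor of a family that represses flowering genes in Arabidopsis in a daily rhythm, and had 10.2, 10.1 and 13.9 CPM before cold, 39.9, 37.8 and 39.4 after 4 h, 20, 21.1 and 21.8 after 24 h and 11.9, 12.1 and 11.9 after 7 d. Its 3 libraries at 24 h lay above 0 h and those at 7 d within it. A second gene described as cyclic dof factor 3 (Ls4g108141.1) was not a member, with ratios of 4.32 at 4 h and 2.76 at 24 h. Cyclic dof factor 2 (Ls2g88380.1) was not one either, with 5.39 and 6.16. LNK2 (Ls1g114861.2), which acts with clock factors of the REVEILLE family in Arabidopsis, had the same shape with means of 53.1 ± 20.4 CPM in warm plants, 135 ± 13 after 4 h, 55.1 ± 9.2 after 24 h and 47.8 ± 6.56 after 7 d (SD, n = 3), and a ratio of 2.52 at 4 h kept it out of the set. LHY (Ls3g140720.1) and REVEILLE 1 (Ls3g67100.1), transcription factors of the clock, had ratios of 10.7 and 14.5 at 4 h and remained high at 24 h, with means of 52.8 ± 5.71 CPM and 110.3 ± 20.9 CPM (SD, n = 3). The part of the hour of day in the members' rise was not tested.

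Heat stress factors and chaperones, which are also early stress genes, gave no member among 23 listed, of which 1 was called higher and 3 lower at 4 h. Over all 1619 listed genes with a description, 154 had a ratio of at least 3 at 4 h, 46 were members, and 354 were called higher at 4 h. The list was compiled by the study on these same samples and holds only genes that changed, so these counts say nothing of how a family behaves as a whole.

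Most members had no description. The 82 genes outside the listed part had ratios at 4 h of 3 to 11.2 with a median of 3.69, and the 9 listed with no description 3.45 to 6.99 with a median of 4.30. The 24 described genes of the fixed families had a median of 4.32 and the 22 other described genes one of 3.58. The largest ratio was that of Ls5g143260.1, which had 1.08, 1.44 and 1.62 CPM before cold, 26.8, 17 and 33.3 after 4 h, 0.516, 0.856 and 4.45 after 24 h and 0.534, 0.27 and 0.632 after 7 d. It was uneven at 4 h and at 24 h, where replicate 3 was above every 0 h library and the other 2 were below, and all its 7 d libraries were below 0 h. Ls8g67401.1 followed with a ratio of 10.3 and 1.08, 0.841 and 1.71 CPM before cold, 21.1, 18.5 and 25.4 after 4 h, 1.19, 2.28 and 3.74 after 24 h and 1.6, 1.19 and 1.42 after 7 d. Ls8g49880.2 reached 8.94 and had 1.44, 1.73 and 1.14 CPM before cold, 24, 15.8 and 22.5 after 4 h, 2.84, 3.04 and 3.03 after 24 h and 1.12, 1.35 and 1.26 after 7 d. Its 24 h libraries agreed closely with each other, and all were above 0 h.

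Ls4g165741.1, with a ratio of 8.79, was among the most even at 4 h, with 1.33, 1.24 and 0.666 CPM before cold, 17.7, 17.3 and 16.8 after 4 h, 2.06, 2.42 and 2.75 after 24 h and 0.695, 0.963 and 0.369 after 7 d. Ls2g77300.1, listed with no description, had a ratio of 6.99 and 25, 15.9 and 18.3 CPM at 4 h. Ls6g42360.2 was at the floor in 2 of 3 libraries at 0 h and had 0.0513, 0.396 and 0 CPM before cold, 5.6, 4.05 and 10 after 4 h, 0.929, 0.618 and 0 after 24 h and 0.16, 0.0385 and 0 after 7 d. Its 4 h libraries were far above its other libraries but spread over a factor of more than 2.

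The undescribed members with high mean CPM at 4 h differed in what followed. Ls7g51000.1 had 36.5, 44.3 and 47.2 CPM before cold, 137, 122 and 132 after 4 h, 40.4, 49.6 and 61.4 after 24 h and 38.7, 42.3 and 44.4 after 7 d, so that its later libraries overlapped with 0 h. Ls9g61640.2 had 31, 33.5 and 42.9 CPM before cold, 123, 87.3 and 119.7 after 4 h, 26.1, 27.2 and 36.4 after 24 h and 24.2, 25.9 and 24.9 after 7 d, with all 7 d libraries below 0 h. Ls7g86961.3 had 43.4, 25.3 and 28.5 CPM before cold, 87.5, 127 and 103 after 4 h, 15.6, 30.2 and 29.4 after 24 h and 24.8, 24.7 and 32.3 after 7 d, and its ratio of 0.78 at 24 h was close to the lowest of the set. This gene was below its warm mean at both later times. By contrast, Ls9g56680.3 and Ls8g37961.2 kept 33.5% and 20% of their 4 h rise at 24 h, with 43.6, 54.2 and 52.1 CPM and 32.9, 29.4 and 37.2 CPM there, against 25.6, 25.7 and 27.7 CPM and 15.7, 21.9 and 20.8 CPM at 0 h.

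In 2 members, Ls9g1180.1 and Ls4g185301.1, all 3 libraries at 0 h were at or under the floor of 3 reads, and they had 4.65, 2.77 and 4.14 CPM and 2.59, 1.23 and 5.05 CPM at 4 h. The largest spread at 4 h among members with a mean of at least 5 CPM there was that of Ls4g162920.1, with 7.92, 2.08 and 7.85 CPM, and of Ls7g11780.3, with 18.6, 57 and 30.4 CPM. In the first, replicate 2 was near the 24 h libraries (2.06, 1.52 and 1.42 CPM), and in the second it was the highest.

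The choice rested on means, so replicates show how far each library followed them. The deviation of log2(CPM + 1) from the mean of its time-point was taken in each library, a quantity that the limits did not use. At 4 h the median deviation of the 137 genes was 0.10 in replicate 1, −0.21 in replicate 2 and 0.08 in replicate 3, against −0.01, −0.01 and 0.02 over the 371 other genes with a ratio of at least 3 and 0.00, −0.01 and 0.01 over all genes tested. Replicate 2 was the lowest of the 3 libraries in 103 of the 137 genes (75.2%), against 42.3% of the 371 other genes and 38.9% of all genes tested. Its interquartile range over the members was −0.35 to −0.05.

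The members' rise was thus smaller in 1 of the 3 libraries at 4 h. The median ratio to the 0 h mean was 4.10 in replicate 1, 3.45 in replicate 2 and 4.02 in replicate 3, and a ratio of 3 was reached by 127, 94 and 133 of the 137 genes. The mean of these libraries chose the genes, so nothing is read from high ratios in each of them. Their summed level was 4052, 3625 and 4093 CPM. Genes chosen again with replicate 2 at 4 h left out, 155 in all, had a median deviation of −0.25 in the library left out, and it was the lowest library in 127 of them (81.9%). The other 4 h libraries were left out in turn in the same way. The 136 genes chosen without replicate 1 had a median deviation of 0.07 in it, where 25 (18.4%) were lowest, and the 135 chosen without replicate 3 had 0.06, where 27 (20.0%) were lowest. Whether the plants, the harvest or the library of that replicate differed was not tested.

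At 24 h the members deviated by −0.13 in replicate 1, 0.01 in replicate 2 and 0.13 in replicate 3, while the medians were −0.06, 0.05 and 0.01 over the 371 other genes and 0.00, 0.02 and −0.02 over all genes tested. Replicate 1 was the lowest in 76 of the 137 genes (55.5%), in 43.9% of the other genes and in 34.3% of all genes tested. At 0 h the median of replicate 1 was −0.08 over the members, −0.05 over the 371 other genes and 0.02 over all genes tested. It was the lowest library in 44.5% of members, 43.4% of the other genes and 30.4% of all genes tested, and at 7 d the medians of the members were −0.01, 0.02 and 0.00. The members had larger spreads between replicates than other genes, and their median coefficient of variation was 17.6% at 4 h, against 11.5% for the 371 other genes and 9.26% for all genes tested. At 24 h it was 23.3%, against 16.1% and 10.4%, at 7 d 21.2%, against 14.7% and 10.7%, and at 0 h 24.0%, against 22.7% and 17.0%. Members had lower levels than tested genes at 0 h, 24 h and 7 d, with medians of 3.08, 4.40 and 2.88 CPM against 10.1, 10.6 and 11.5 CPM. At 4 h their median was higher, at 15.1 CPM against 10.9 CPM. The part of level in this spread was not tested.

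**Figure D4:**
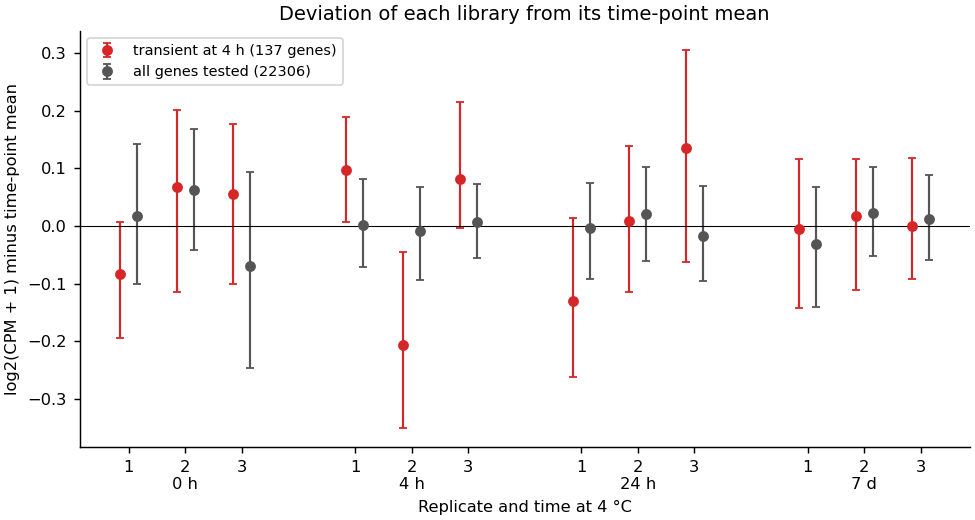
The y axis is log2(CPM + 1) in a library minus the mean of its time-point and the x axis gives replicate and time at 4 °C, with points at the median over genes and bars from the first to the third quartile, for the 137 transient genes (red) and all 22306 genes tested (grey). The red point of replicate 2 at 4 h is at −0.21, and the red points at 24 h run from −0.13 to 0.13.

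To read the pattern in libraries that did not choose the genes, the limits were applied to 2 replicates at each time and the chosen genes were read in the remaining one. Ratios there were to the 0 h library of the same number, although the labels do not say that a number marks a shared source. With replicate 1 left out, 114 genes were chosen, and their median ratio in replicate 1 was 4.32 after 4 h, 1.31 after 24 h and 1.03 after 7 d. With replicate 3 left out, 140 genes were chosen, with medians of 4.12, 1.54 and 0.999 in that replicate. With replicate 2 left out, 171 genes were chosen, and the median in it was 2.96 at 4 h, against 3.89 in the replicates that chose them, with 1.42 after 24 h and 0.947 after 7 d. The order of these medians, highest at 4 h and lowest at 7 d, was thus the same in each replicate left out. The median at 4 h was lowest in replicate 2.

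Single genes met the limits less often. In the replicate left out, a ratio of 3 at 4 h was reached by 88 of 114, 84 of 171 and 118 of 140 genes for replicates 1, 2 and 3. All limits were met by 65 genes (57.0%), 54 genes (31.6%) and 68 genes (48.6%), against 0.765%, 0.418% and 0.673% of all genes of the table in the same libraries. The sets chosen on 2 replicates shared 91, 119 and 111 genes with the 137. Since the 3 readings share libraries with each other, they are not separate experiments.

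**Figure D5:**
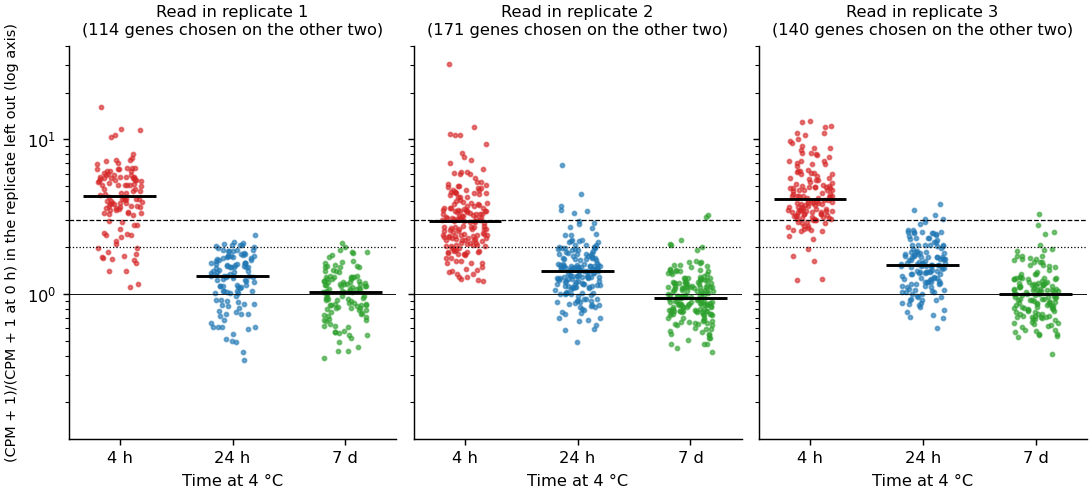
Each point is a gene chosen on the other replicates, its ratio of CPM plus 1 to 0 h in the replicate left out is on the logarithmic y axis, and time at 4 °C is on the x axis. Bars are medians, the dashed line marks a ratio of 3 and the dotted line a ratio of 2, and the median at 4 h is 4.32, 2.96 and 4.12 for replicates 1, 2 and 3.

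The members were found on each of the linkage groups 1 to 9, and 3 were among the 526 genes with the digit 0. The members made up 0.572% of all genes, and between 0.243% on linkage group 5 (8 of 3286) and 0.855% on linkage group 6 (18 of 2106), while linkage group 8 held 24. Gene numbers within 100 of each other on a linkage group formed 7 pairs with 13 members (9.49%). Among the 371 other genes with a ratio of at least 3 at 4 h, there were 31 such pairs with 56 genes (15.1%). Such pairs were thus not particular to the members. That the numbers follow the order on the chromosome is not stated in the sources used here, and reads could be split between near-identical neighbours.

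On linkage group 6 there were 5 such pairs. Ls6g39901.1 had a mean of 7.5 CPM after 4 h, against 0.496 CPM in warm plants, and its neighbour Ls6g39921.1 one of 3.57 CPM, against 0.280 CPM. Ls6g41521.1, Ls6g41541.3 and Ls6g41601.1 formed a run with means of 7.10, 14.98 and 15.1 CPM at 4 h, against 1.33, 4.16 and 3.90 CPM at 0 h. Ls6g12141.2 and Ls6g12161.1 had 5.42 and 8.35 CPM at 4 h, against 0.751 and 0.871 CPM at 0 h, both with replicate 2 lowest at 4 h. The other pairs were Ls6g103900.1 with Ls6g103940.3, Ls7g74040.1 with Ls7g74080.3 and Ls8g38840.1 with Ls8g38860.1. All 13 neighbours were outside the listed part and have no description here.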

How the data were processed

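RNA-seq of above-ground ‘Salinas’ tissue was analysed at 4 time-points with 3 replicates each, grouped by the sample titles. The authors aligned the reads to version 8 of the lettuce genome with STAR 2.5.2 and counted them per gene with featureCounts, whose version is not given in the sources used here. They deposited CPM values, scaled by library total only. Libraries each sum to 1000000, and the value of 1 read divides 100% of the entries to a whole number within 0.01, so reads were recovered.

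Ratios were taken from means of CPM plus 1. Limma 3.58.1 in R 4.3.3 was fitted to log2(CPM + 1) of all 12 libraries, over the 22306 genes that reached 0.5 CPM in 2 or more libraries, with Benjamini-Hochberg adjustment within each contrast. The design had named a count test if the values were counts, and edgeR 4.0.16 (quasi-likelihood) and DESeq2 1.42.0 were run on the recovered reads as alternatives. On simulated data for 4 h against 0 h with 22306 genes, limma recovered 89 of 100 genes changed 3-fold and 100 of 100 changed 5-fold, with 1 false call. The changed genes were drawn at random from those with a 0 h mean of at least 1 CPM, and genes varied independently of each other. This recovery thus does not cover the 33 members below that level, nor a deviation that members share within a library. P-values measure the spread between these replicates only.

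Members and gene lists were chosen with earlier results of these data known. Families were found by words in the descriptions of the study's list of cold-regulated genes. Of this list only the genes with a digit of 0 to 3 after Ls were at hand in full, and its fold-change columns were not used. Named members were the 10 with the largest ratio among those with a mean of at least 5 CPM at 4 h, the 10 with the highest mean at 4 h, up to 3 described members of each family, the 2 genes on each side of each limit, and the 2 with the largest and the smallest spread at 4 h. The other described members, and those at the floor, were added after their values were seen so that each is accounted for. Alternatives were 0.1 CPM added, TMM and RLE scaling, medians, no filter, 2 time-points only, a replicate block, an adjusted p of at most 0.05 and each library left out. Promoter motifs, sequences, LsCBF2, LsCBF6 and LsCBF13 were not analysed here.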

Additional observations from a re-analysis of the deposited data

How the results depend on the processing

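The set changed with the CPM added before the ratio: with 0.1 CPM in place of 1 it held 216 genes, 94 of them shared with the 137 (68.6% of the 137 and 43.5% of the 216). TMM and RLE scaling gave 136 and 134 genes with 123 and 120 shared, medians of 3 libraries gave 146 with 112 shared, and leaving out libraries gave 114 to 171, the extremes with replicate 1 (91 shared) or replicate 2 (119 shared) left out at every time, and 140 without replicate 3 (111 shared), alternatives added after the data were seen, as was choosing the genes again without each 4 h library. Members called higher at 4 h numbered 132 to 137 in every alternative run, with 132 to 137 when single libraries were left out. At 24 h, 0 members were called by limma, against 17 with a pseudocount of 0.1 CPM, 17 in edgeR and 15 in DESeq2, all higher than 0 h. Leaving out single libraries gave 0 to 10, with 10 without 24 h replicate 1, 6 without 0 h replicate 3, 4 without 0 h replicate 2 and 1 each without 24 h replicates 2 and 3. At 7 d, 0 were called by limma, against 6 with a pseudocount of 0.1 CPM (3 higher, 3 lower), 4 in edgeR and 7 in DESeq2, the last 2 all lower, and leaving out single libraries gave 0 to 0. The cause of these differences was not tested. The median deviation of 4 h replicate 2 was −0.21, and −0.20 with TMM, −0.22 with a pseudocount of 0.1 CPM and −0.25 over genes chosen without it, those of 4 h replicates 1 and 3 were 0.10 and 0.08, and 0.07 and 0.06 over genes chosen without them, and that of 24 h replicate 1 was −0.13, −0.13 with TMM and −0.15 with 0.1 CPM.

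With the replicate number as a block, 136 members were called at 4 h and 0 at 24 h and 7 d. Deviations of same-numbered libraries of different time-points had correlations of −0.219 to 0.187, and those of differently numbered libraries −0.244 to 0.259. These ranges cannot show whether same-numbered samples share a source. The labels do not state one, so no pairing was used in the main tests. The block above, the sets chosen without a replicate at every time and the ratios in the replicate left out did go by replicate number. The alternative for promoter motifs was not run. Genes near 3 reads at 0 h are limited by depth, and their ratios depend on the CPM added.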
